A study of Mus musculus with 8 samples.

Results

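Protein kinase C (PKC) is a family of serine/threonine kinases that transmits signals from receptors coupled to phospholipase C. The 8 isoform genes described here are Prkca and Prkcb (conventional), Prkcd, Prkce, Prkch and Prkcq (calcium-independent), and Prkci and Prkcz (atypical). They were chosen by name, and all 8 were found among the 18939 genes of the table and were counted in every library. The libraries are TRAP-Seq of mu-opioid receptor (MOR)-expressing neurons of the paraventricular nucleus of the thalamus (PVT), in which RNA is purified on ribosomes that carry a tagged subunit. All mice were young adults of a C57Bl/6J background with the genotype OPRM1cre X EGFP-L10a, so Cre made from the Oprm1 locus switches on the EGFP-L10a ribosomal protein, and both groups carry these alleles. The morphine group (replicates 3, 4, 7 and 8) drank morphine raised stepwise to 0.5 mg/ml in 0.2% saccharin for 11 days, and the control group (replicates 1, 2, 5 and 6) drank 0.2% saccharin without morphine. Each group holds 2 libraries labelled male and 2 labelled female, each made from 2 pooled dissections aimed at the PVT. Cells in which Cre was active only earlier in life would keep the tag.

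Conventional isoforms are activated by diacylglycerol (DAG) together with calcium, calcium-independent isoforms by DAG alone, and atypical isoforms by neither, since their C1 domain does not bind DAG and they lack a calcium-binding C2 domain. DAG is made when Gq-coupled receptors activate phospholipase C, and the IP3 made with it releases calcium. In neurons PKC phosphorylates receptors, ion channels and release proteins, and it is one of the kinases that act on MOR after agonist exposure. Prkcd is well known as a gene of high expression in thalamic relay nuclei.

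The control libraries held 37081348 to 43311793 counts and the morphine libraries 31151103 to 47582947, and levels are given as CPM, the counts scaled to a common library size with TMM factors. Oprm1, which marks the targeted cells, was 25.3 ± 6.92 CPM in controls and 16.5 ± 1.95 in the morphine group (SD, n = 4), with 463 to 1307 counts, and was not called (edgeR adjusted P = 0.207). Each of 9 thalamic neuron markers was detected in every library, and their summed level was 2521 to 3331 CPM in controls and 1896 to 3289.5 CPM in the morphine group. Of these markers 9 of 9 had a log2 fold change below 0 (median -0.29), and Gbx2 (-0.69) and Zic1 (-0.66) had an unadjusted edgeR P value under 0.05 (12.1% of all genes), with 0 called. Markers of other cells were also present. The 8 telencephalic pyramidal neuron markers summed to 76.9, 68.2, 75.0 and 238 CPM in control replicates 1, 2, 5 and 6 and to 183, 381, 333 and 332 CPM in morphine replicates 3, 4, 7 and 8. The 13 choroid plexus markers summed to 43.7 to 166 CPM in controls, with Kcnj13 at 0 in a control library, and to 219 to 683 CPM in the morphine group. The mean log2 CPM of 5 hippocampal field markers was 1.84 to 2.67 in controls and 3.06 to 4.26 in the morphine group, without overlap, and 5 of 5 had a log2 fold change above 0 (median 0.98), as compared to 51.4% of all genes. Spink8, C1ql2 and Lct were above all controls in every morphine library, as were 3.34% of all genes. In summed CPM, which Wfs1 led, this list overlapped, at 58.4 to 92.0 and 72.0 to 141 CPM. The 6 medial habenula markers summed to 128 to 226 CPM in controls and 125 to 163 CPM in the morphine group. The 5 GABAergic markers summed to 1160.3 to 1593 CPM and 916 to 1388 CPM in these groups, the 10 oligodendrocyte markers to 126 to 1282 CPM and 597 to 1571.5 CPM, and the 8 astrocyte markers to 249 to 441 CPM and 323 to 388 CPM. Microglial markers (8 genes, at most 15.3 CPM in sum, Trem2 at 0 in libraries of both groups) and endothelial markers (7 genes, at most 8.24 CPM) were low. In control replicate 5, labelled female, Y-linked genes reached 28.7% to 35.8% of the male mean, while 2 counts was the most for any of them in the rest of the female libraries.

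The 8 PKC genes lie apart in the genome, and 1 gene can give more than 1 protein form, as Prkcz does. The windows printed here show where transcription begins for the genes that the results turn on. RefSeq (GRCm38.p6) promoter windows, from 250 bases before to 50 bases after a start, were found for 6 of the 8 genes, 9 windows in all, and Prkce and Prkch had no entry. They were searched on both strands for 4 motifs. The GC box GGGCGG was in 7 of the 9 windows, with at least 1 in each of the 6 genes, as compared to 35.7% of all 32851 windows. The E-box CACGTG (7.15% of all windows) was found only for Prkcd, which also held the TATAAA motif (13.6% of all windows), and the cAMP response element TGACGTCA (1.79% of all windows) was found only for Prkcz. Windows of 30 bases around a match follow, 5′ to 3′, with the motif in capitals. Those of Prkca and Prkcb show the conventional pair with the largest differences between groups, that of Prkcd shows the only E-box, and those of Prkcz show the RefSeq starts nearest to those of its 2 transcripts in the table. A further Prkcz window, with GC boxes, belongs to another RefSeq start and is not shown.
Prkca, chr11:108343941-108343970, minus strand, GC box 70 bases before the start: ggcatgcgcagtGGGCGGcgccgctccggg
Prkcb, chr7:122289025-122289054, plus strand, GC box 88 bases before the start: gctggcggctctGGGCGGggcctgggtttc
Prkcd, chr14:30626297-30626326, minus strand, E-box 106 bases before the start: ggacccccagctCACGTGggcggagcttcg
Prkcz upstream start, chr4:155361423-155361452, minus strand, GC box read on the other strand: gatggccaggttCCGCCCccatccagtgtg
Prkcz internal start, chr4:155345778-155345807, minus strand, cAMP response element: ttgtttccgtgTGACGTCAgctcctccgta
In the Prkcd window the E-box shares its last base with a GC box. In the Prkcz windows the GC box begins 12 bases before the upstream RefSeq start and the cAMP response element 7 bases before the internal RefSeq start. The GENCODE models matched to the 2 transcripts begin 67 and 17 bases downstream of these starts. A match is a description of the letters in these windows, and binding of a factor was not measured.

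None of the 8 isoforms was called between morphine and control libraries (adjusted P under 0.05 over all genes by the quasi-likelihood test of edgeR), where 0.195% of all genes were called, 0.164% higher and 0.0317% lower under morphine. At an unadjusted P value under 0.05 there was 1 isoform, Prkca, as compared to 12.1% of all genes (6.79% higher and 5.31% lower), and DESeq2 called 1 isoform, again Prkca, as compared to 2.65% of all genes. In all 8 isoforms the values of the 2 groups overlapped, whereas in 6.54% of all genes they did not. The largest differences were a higher Prkca and Prkcb and a lower Prkch in the mean of the morphine group, and the smallest were those of the 2 atypical isoforms.

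**Figure D1:**
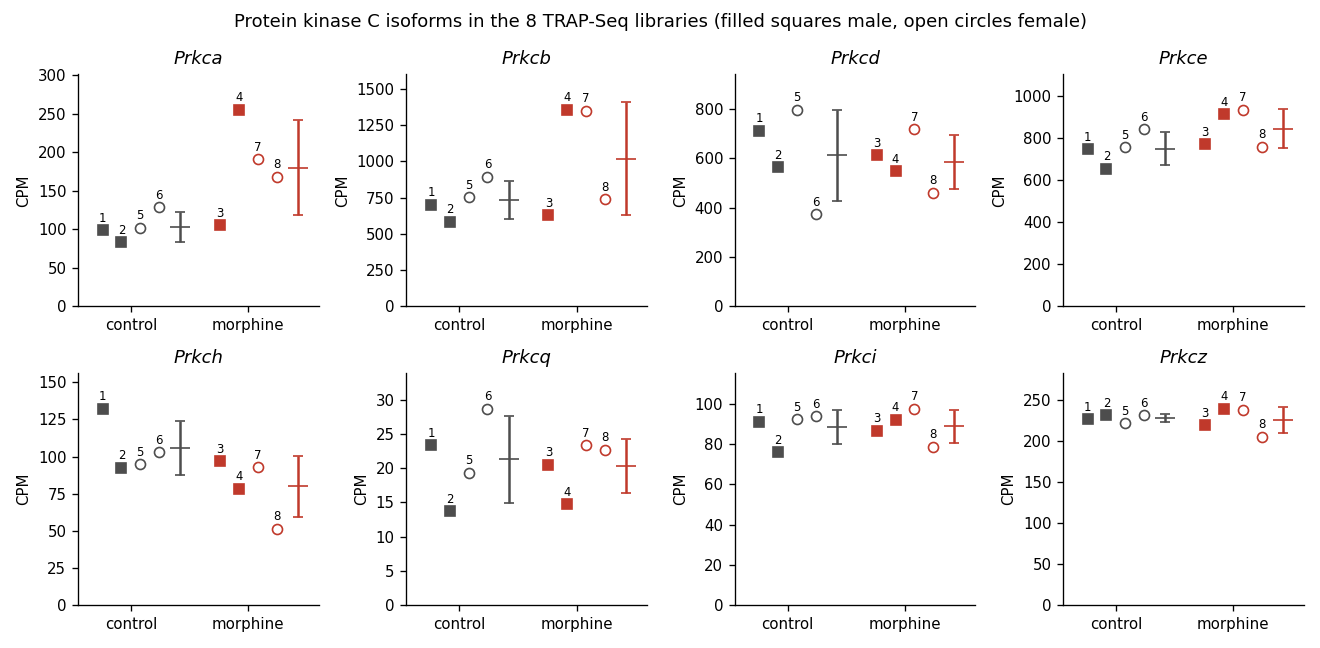
CPM (TMM-scaled, linear axes from 0) of each PKC isoform gene in the 4 control (grey) and 4 morphine (red) libraries, with replicate numbers, filled squares for libraries labelled male and open circles for female; the bars are mean ± SD. Prkca was 105 CPM in morphine replicate 3, inside the control range, and 168 to 255 CPM in the other 3 morphine libraries, while Prkcz stayed between 206 and 239.7 CPM in all 8.

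Among the conventional isoforms, Prkca (PKC-alpha, chr11:107933387-108343888, NM_011101) was 98.5, 82.8, 102 and 129 CPM in control replicates 1, 2, 5 and 6. In the morphine group it was 105, 255, 191 and 168 CPM in replicates 3, 4, 7 and 8. Replicates 4, 7 and 8 lay above every control library, and replicate 3 lay below control replicate 6. The group means were 103 ± 19.0 and 179.9 ± 61.9 CPM (SD, n = 4). The log2 fold change was 0.80, with an SE of 0.23 and a 95% interval of 0.31 to 1.30. The edgeR P value was 0.00423, the adjusted P value 0.182, and the exact two-sided permutation P value 0.0571, where the smallest that 4 against 4 libraries allow is 0.0286. By DESeq2 the log2 fold change was 0.81 and the adjusted P value 0.0284, and over the 19 alternative settings the adjusted P value ranged from this value to 1. Prkca held 3680 to 8421 counts per library.

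The Prkca values moved with the telencephalic markers. The 3 libraries with the highest Prkca (morphine replicates 4, 7 and 8) were those with the highest telencephalic marker sum. With the mean log2 CPM of these markers as a covariate, Prkca had a log2 fold change of 0.13 (SE 0.31, edgeR adjusted P = 0.968). With the choroid plexus score it was 0.48 (SE 0.35), and Prkca was called in neither fit. Both SEs were larger than the 0.23 of the main fit. The choroid plexus score did not overlap between the groups, and the telencephalic score was above all controls in morphine replicates 4, 7 and 8. These scores are thus largely confounded with the group. The hippocampal field markers also separated the groups, and their part in the Prkca difference was not tested. In bulk RNA a larger number of cells of a type and more RNA per cell cannot be told apart. Prkca is also among the genes that the study lists for this comparison on these same libraries, so the choice of this gene is not independent of its values.

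Prkcb (PKC-beta, chr7:122289104-122634402, NM_008855) was the conventional isoform with the most counts, 22428 to 44814 per library. It was 702, 584, 755 and 895 CPM in control replicates 1, 2, 5 and 6. In the morphine group it was 630.4, 1357, 1349.6 and 741 CPM in replicates 3, 4, 7 and 8. Replicates 4 and 7 stood apart above all other libraries, and replicates 3 and 8 lay inside the control range. The means were 734 ± 129 and 1019.5 ± 388 CPM (SD, n = 4), with a log2 fold change of 0.47, an SE of 0.24 and a 95% interval of -0.06 to 1.01, and the difference was not called (edgeR adjusted P = 0.476). With the telencephalic markers as a covariate, Prkcb had a log2 fold change of -0.13 (SE 0.37), and with the choroid plexus score 0.38 (SE 0.39). The third conventional isoform, PKC-gamma, is listed under its older symbol Prkcc and is not one of the 8, and it was 349 ± 42.2 CPM in controls and 357 ± 77.7 in the morphine group (SD, n = 4), with a log2 fold change of 0.03 (edgeR adjusted P = 0.957).

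**Figure D2:**
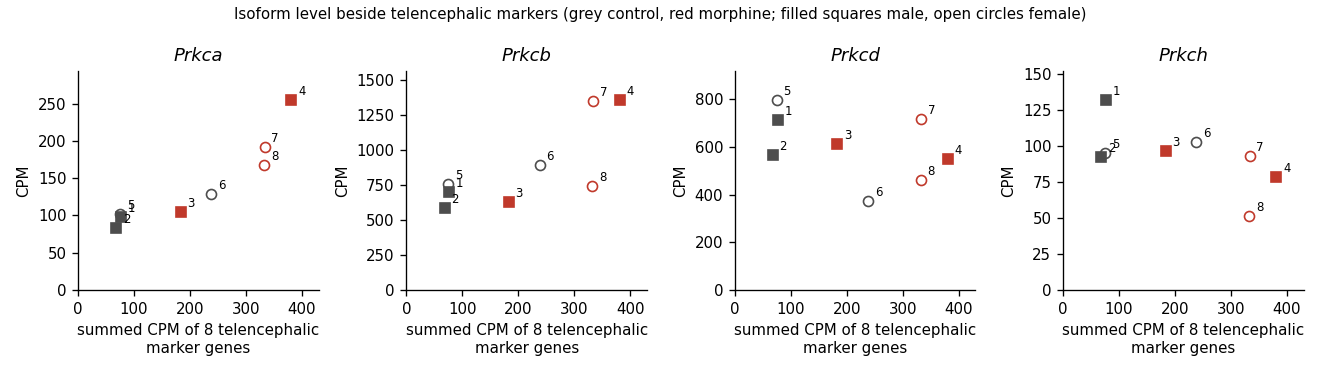
CPM of 4 isoforms (y axes, linear from 0) against the summed CPM of 8 telencephalic pyramidal neuron marker genes (x axes) in each library, control in grey, morphine in red, squares male and circles female, with replicate numbers. Prkca and Prkcb were highest in morphine replicate 4, which had the highest marker sum (381 CPM), and Prkch was lowest in morphine replicate 8.

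The next 4 genes encode the isoforms that need DAG but not calcium. Prkcd (PKC-delta, chr14:30595353-30626414, NM_011103) was 712, 565, 797 and 373 CPM in control replicates 1, 2, 5 and 6 and 613, 549, 719 and 461 CPM in morphine replicates 3, 4, 7 and 8. The lowest and the highest of the 8 values were both control libraries, the female replicates 6 and 5. The means of 612 ± 185 and 586 ± 108 CPM (SD, n = 4) gave a log2 fold change of -0.06 with a 95% interval of -0.53 to 0.40 (edgeR adjusted P = 0.928). With the telencephalic marker score as a covariate the log2 fold change was 0.63, and with that of the choroid plexus it was 0.68, both at an unadjusted edgeR P value under 0.05 and neither past adjustment (edgeR adjusted P = 0.711 and 1). The direction for Prkcd therefore depended on the model.

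Prkce (PKC-epsilon, chr17:86167785-86657919, NM_011104) was 747, 653, 754 and 840.4 CPM in control replicates 1, 2, 5 and 6 and 768, 912, 932 and 758 CPM in morphine replicates 3, 4, 7 and 8. The 2 highest values were morphine libraries and the lowest was a control library. The means were 748 ± 76.7 and 842 ± 92.3 CPM (SD, n = 4), with a log2 fold change of 0.17 and a 95% interval of -0.08 to 0.43 (edgeR adjusted P = 0.601). The upper end of this interval leaves out a log2 difference as large as the one estimated for Prkca. The Prkce log2 fold change was -0.05 (SE 0.17) with the telencephalic score as a covariate and 0.14 (SE 0.19) with the choroid plexus score.

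Prkch (PKC-eta, chr12:73584796-73778185, NM_008856) was 132, 92.5, 95.1 and 103 CPM in control replicates 1, 2, 5 and 6 and 96.9, 78.3, 93.0 and 51.5 CPM in morphine replicates 3, 4, 7 and 8. Replicate 8 had the lowest value of all libraries, and replicates 3 and 7 lay above at least 1 control library. The means were 106 ± 18.3 and 79.9 ± 20.6 CPM (SD, n = 4). The log2 fold change was -0.40, with an SE of 0.19 and a 95% interval of -0.81 to 0.003, and the difference was not called (edgeR adjusted P = 0.418; without adjustment 0.0515). By DESeq2 the unadjusted P value was 0.0464 and the adjusted P value 0.328. The choroid plexus marker sum was highest in morphine replicate 8 (683 CPM), and with this marker score as a covariate Prkch had a log2 fold change of 0.06 (SE 0.23), and with the telencephalic score -0.26 (SE 0.29).

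Prkcq (PKC-theta, chr2:11171905-11301226, NM_008859), best known from T cells, was the lowest of the 8, with 486 to 1105 counts per library. It was 23.4, 13.8, 19.3 and 28.7 CPM in control replicates 1, 2, 5 and 6 and 20.5, 14.7, 23.3 and 22.7 CPM in morphine replicates 3, 4, 7 and 8. The control values enclosed all 4 morphine values. The log2 fold change was -0.07 with a 95% interval of -0.53 to 0.40 (edgeR adjusted P = 0.924). With the telencephalic score as a covariate it was -0.41 (SE 0.30), and with the choroid plexus score -0.16 (SE 0.33), and Prkcq was called in neither fit.

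The atypical isoforms bind polarity proteins and respond to neither DAG nor calcium. Prkci (PKC-iota, chr3:30995742-31052740, NM_008857) was 91.3, 75.9, 92.4 and 94.0 CPM in control replicates 1, 2, 5 and 6 and 86.8, 92.3, 97.7 and 78.8 CPM in morphine replicates 3, 4, 7 and 8. Control replicate 2 lay below the other 7 libraries. The log2 fold change was 0.01 with a 95% interval of -0.22 to 0.23 (edgeR adjusted P = 0.987). Prkcz (PKC-zeta, chr4:155260118-155361428) was 226, 232, 222 and 232 CPM in control replicates 1, 2, 5 and 6 and 219, 239.7, 238 and 206 CPM in morphine replicates 3, 4, 7 and 8. The morphine values enclosed all 4 control values. The log2 fold change was -0.01 with a 95% interval of -0.20 to 0.18 (edgeR adjusted P = 0.975). The SD of log2 CPM over all libraries was 0.07 for Prkcz and 0.13 for Prkci, the smallest of the family, and 0.56 for Prkca and 0.47 for Prkcb, the largest.

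**Figure D3:**
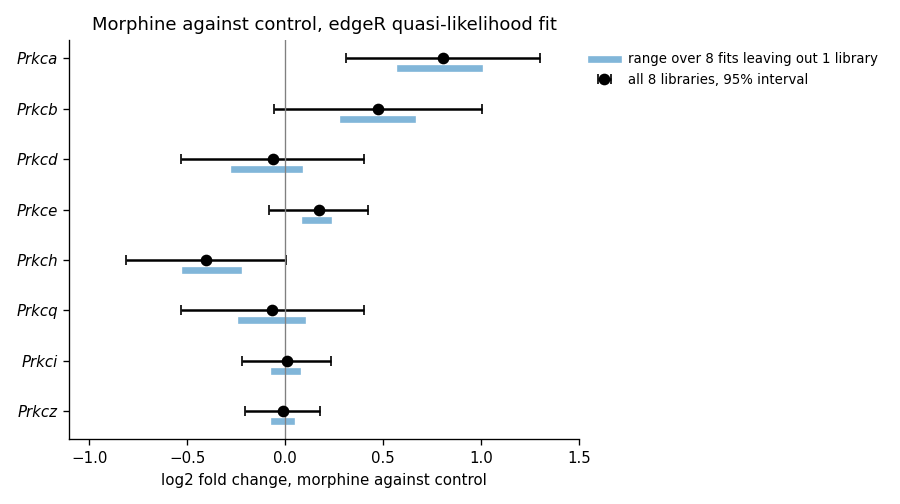
Log2 fold change of each isoform gene between morphine and control from the edgeR fit; black points and bars are the estimate from all 8 libraries with its 95% interval, and blue bars span the 8 fits that each leave out 1 library. The Prkca interval (0.31 to 1.30) lies above 0, the other 7 intervals include 0, and the range over left-out libraries for Prkca was 0.59 to 0.99.

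Leaving out 1 library at a time, Prkca stayed at an unadjusted edgeR P value under 0.05 and was not called in any of these fits. Prkcb had a log2 fold change from 0.29 to 0.65, with an unadjusted edgeR P value under 0.05 only without morphine replicate 3 and without morphine replicate 8. Prkce (0.10 to 0.22) and Prkch (-0.51 to -0.24) kept their direction. Prkcd, Prkcq, Prkci and Prkcz took either direction. Without control replicate 5, the library with Y-linked counts, 0 isoforms were called and Prkca and Prkch had an unadjusted edgeR P value under 0.05. With all 8 libraries 12.1% of all genes were under this threshold.

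Prkcz is listed with 2 transcripts, which differ in where they start, and their counts were compared within each library. NM_008860 encodes the full-length kinase of 592 codons over 18 exons and begins near the upstream start. NM_001039079 begins near the internal start, within the span of the full-length transcript, and its 409 codons over 15 exons match PKM-zeta, a brain form without the regulatory domain that is active without a second messenger. The 2 rows share 14 exons, and a read on these is counted for both. Exons, codons and bases here are those of the matched GENCODE models, which may differ from the models on which the reads were counted. In these models NM_001039079 has 323 bases of its own at the 5′ end and 1592 at the 3′ end. NM_008860 has 473 bases of its own. The count of NM_001039079 exceeded that of NM_008860 by 12.25%, 12.7%, 11.84% and 12.6% in control replicates 1, 2, 5 and 6. In the morphine group the excess was 8.737%, 10.2%, 9.858% and 10.81% in replicates 3, 4, 7 and 8. Every morphine library lay below every control library, with means of 12.4% ± 0.39 and 9.90% ± 0.87 and a difference of -2.45 percentage points (exact two-sided permutation P = 0.0286, n = 4, the smallest that this design allows). In CPM, the excess was 25.1 ± 1.22 in controls and 20.3 ± 2.00 in the morphine group (exact permutation P = 0.0286, n = 4), while the rows themselves were 203 ± 3.53 and 205 ± 15.2 CPM for NM_008860 (exact permutation P = 0.914, n = 4) and 228 ± 4.74 and 226 ± 16.4 CPM for NM_001039079 (exact permutation P = 0.83, n = 4). The SD of either row in the morphine group was larger than the difference in excess, so the rows do not show which of them it lies on. Of 1546 genes with 2 transcript rows that differ and hold at least 10 counts in every library, the same excess did not overlap between the groups in 4.59%, and was lower in every morphine library in 3.1%. The Prkcz comparison was chosen after the table had been seen. Reads on the internal first exon and on the longer 3′ end of NM_001039079 cannot be told apart, nor can fewer of them from more reads on the bases that only NM_008860 holds, and other RefSeq transcripts of the gene were not used here.

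**Figure D4:**
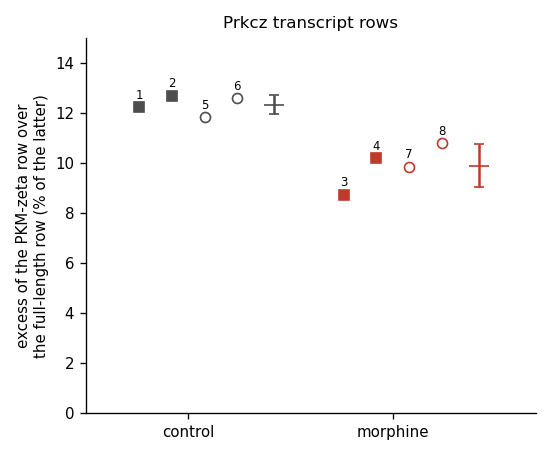
Excess of the read count of the short-coding Prkcz transcript (PKM-zeta, NM_001039079) over that of the full-length transcript (NM_008860), as a percent of the latter (y axis from 0), in control (grey) and morphine (red) libraries with replicate numbers; bars are mean ± SD. The 4 control libraries lie between 11.84% and 12.7% and the 4 morphine libraries between 8.737% and 10.81%.

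Levels of different isoforms were compared as CPM per kb of transcript length, with GENCODE M21 lengths that may differ from the model on which the reads were counted. In controls the order was Prkcb (252 ± 44.3), Prkcd (220.3 ± 66.8), Prkce (119.7 ± 12.3), Prkcz (55.8 ± 1.16), Prkch (29.8 ± 5.15), Prkci (18.8 ± 1.78), Prkca (12.2 ± 2.26) and Prkcq (5.94 ± 1.76 CPM per kb; SD, n = 4). Prkcb was thus 42.4-fold above Prkcq. Prkcb and Prkcd were not separated, since Prkcb was the higher in 4 of 8 libraries, and Prkci was above Prkca in 5 of 8. Prkcd was above Prkce, Prkce above Prkcz, Prkcz above Prkch and Prkca above Prkcq in 8 of 8 libraries, and Prkch was above Prkci in 7. Prkca has the longest transcript of the family (8.41 kb, against 2.91 kb for Prkcb), and per kb of coding length (alternative chosen after the data were seen) the order was Prkcb, Prkce, Prkcd, Prkcz, Prkch, Prkca, Prkci and Prkcq.

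**Figure D5:**
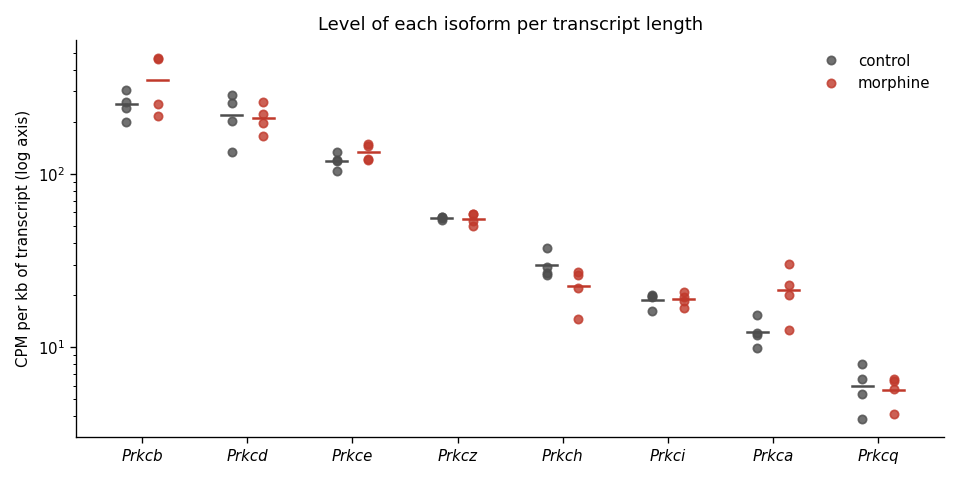
CPM per kb of transcript length of the 8 isoform genes (log axis), ordered by their control mean, with 1 point per library (grey control, red morphine) and a line at each group's mean. Prkcb, Prkcd and Prkce lie above 100 CPM per kb in every library, and Prkcq below 10 in every library.

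By class, the calcium-independent isoforms held 52.5% ± 6.12 of the summed CPM per kb of the 8 isoforms in controls. The conventional isoforms held 37.0% ± 5.84 and the atypical isoforms 10.5% ± 1.01 (SD, n = 4). In the morphine group these shares were 46.5% ± 6.94, 44.2% ± 8.15 and 9.28% ± 1.40 (SD, n = 4). The conventional share was 33.8% to 45.7% in controls and 33.8% to 52.6% in the morphine group, so the groups overlapped. Per kb of coding length the control shares were 51.9% ± 4.29, 30.6% ± 4.2 and 17.5% ± 1.45 in the same order of classes (SD, n = 4). The atypical share thus depended on the length used. For Prkcz this was the 1227 coding bases of the short form, though its row also counts reads shared with the full-length transcript. With the 1776 coding bases of the latter the atypical share would be lower. Prkcc, a conventional isoform with 349 ± 42.2 CPM in controls (SD, n = 4) and a transcript of 3.13 kb, is not part of these sums. The order of the classes therefore holds for the 8 genes alone and not for the whole family.

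Libraries differed from one another across several isoforms. Control replicate 2 was the lowest control library for 6 of the 8 isoforms, as compared to 36.7% of the 10737 genes with a mean of at least 5 CPM, and control replicate 6 was the highest for 6, as compared to 20.2%. In the morphine group replicate 8 was the lowest for 5 isoforms (24.2% of these genes) and replicate 7 the highest for 4 (24.2%). These members share their libraries and are not independent of one another.

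No isoform was called between libraries labelled female and male (edgeR with condition in the model, adjusted P = 0.99963 for each, 0.00528% of all genes called), and 0 of the 8 reached an unadjusted edgeR P value under 0.05, as compared to 3.1% of all genes. The largest difference was that of Prkcq, higher in female libraries by a log2 difference of 0.38 with an SE of 0.18 (edgeR, 0.0612 without adjustment). These tests keep control replicate 5, which holds Y-linked counts, as female. Without it, the Prkcq difference was 0.47 (0.0294 without adjustment by edgeR, 0.99971 adjusted), and 5 genes were called. Leaving out another library also brought isoforms under an unadjusted edgeR P value of 0.05, with 0 isoforms called in these fits. They were Prkcq without control replicate 1 or morphine replicate 3, Prkca and Prkcb without morphine replicate 4, and Prkch without morphine replicate 7. The 3.1% of all genes belongs to the fit with all 8 libraries, and the share in each of these fits can differ. In the interaction test of sex and morphine 0 isoforms were called (edgeR adjusted P = 0.99996 for each; 0% of all genes called, and 1.72% of all genes but 0 isoforms at an unadjusted P value under 0.05). With 2 libraries per sex and group these tests leave wide errors, such as an interaction of -0.35 with an SE of 0.44 on the log2 scale for Prkca, whose mean log2 difference between morphine and control was 0.86 in male and 0.65 in female libraries. Without morphine replicate 3, which leaves morphine replicate 4 as the only male morphine library, the Prkca interaction was -0.85. An arm of a single library gives no spread of its own, so nothing is concluded from this value.

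The pathway around PKC was read from lists of 72 genes, to be set against the 12.1% of all genes with an unadjusted edgeR P value under 0.05 and the 48.6% with a log2 fold change below 0. Of the 14 genes that make DAG and IP3 (Gq-type alpha subunits and phospholipases C), 0 were called and 1 had an unadjusted edgeR P value under 0.05, Plcd4, with a log2 fold change of -0.50. The median log2 fold change of these 14 was -0.05, as compared to 0.01 over all genes. Of the 3 IP3 receptors 0 passed either threshold. Of the 12 enzymes that remove DAG (diacylglycerol kinases and lipases), 0 were called and 3 had an unadjusted edgeR P value under 0.05, with a log2 fold change of 0.41 for Dagla, 0.35 for Dgke and -0.51 for Dgkk, and a median of 0.29 over the list.

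Other proteins also bind DAG through a C1 domain, and of 12 such genes 1 was called, as compared to 0.195% of all genes. Chn1 (alpha1-chimaerin, a Rac GTPase-activating protein of neurons) rose under morphine, from 725 ± 61.7 CPM in controls to 1149 ± 117 CPM (SD, n = 4). Its log2 fold change was 0.66 and the SE 0.11 (edgeR adjusted P = 0.0478). All 4 morphine libraries (1022 to 1266 CPM) lay above all 4 controls (657 to 794 CPM), as in 3.34% of all genes. The direction held in 19 of 19 alternative settings (log2 fold change of 0.46 to 0.72), but Chn1 was called in 6 of them. It was called in 1 of the 8 fits that leave out a library, the one without morphine replicate 3, and its call was lost without any other library (adjusted P up to 0.175 by edgeR) and with either marker score as a covariate (0.686 and 1). In the same list Rasgrp1 had a log2 fold change of 0.42 and Chn2 of -0.39, both at an unadjusted edgeR P value under 0.05 and not called, and the median was 0.08.

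Of the 7 neuronal PKC substrates 0 were called by edgeR. Nrgn (neurogranin, which releases calmodulin when PKC phosphorylates it) was 363 ± 132 CPM in controls and 999 ± 322 CPM in the morphine group (SD, n = 4), with a log2 fold change of 1.46 and an SE of 0.30 (edgeR adjusted P = 0.0817). Nrgn was called in 2 of 19 alternative settings, by DESeq2 and with sex in the edgeR model (adjusted P = 0.0412), and over all 19 its log2 fold change ranged from 0.62 to 1.64. The morphine libraries (594 to 1369 CPM) all lay above the controls (179 to 487 CPM), as in 3.34% of all genes. Gap43, another substrate, had a log2 fold change of -0.31 (edgeR adjusted P = 0.321), and the list's median was -0.03. Nrgn is abundant in telencephalic pyramidal neurons. Of their markers 8 of 8 had a log2 fold change above 0 (51.4% of all genes) and Bhlhe22 was called (edgeR adjusted P = 0.0176), but their summed CPM overlapped between the groups, with morphine replicate 3 (183) below control replicate 6 (238). With their score as a covariate Nrgn had a log2 fold change of 0.68 (SE 0.44, edgeR adjusted P = 0.76). With the choroid plexus score it was 0.62 (SE 0.36), and Nrgn was called in neither fit. The part of these cells in the Nrgn difference was not tested beyond these values.

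Among the 6 partners of the atypical isoforms (Par3, Par6, p62 and KIBRA), 0 were called and 6 of 6 had a log2 fold change below 0, with a median of -0.09. Sqstm1, which encodes the scaffold p62, was 540.5 ± 54.4 CPM in controls and 441 ± 19.5 CPM in the morphine group (SD, n = 4). Its log2 fold change was -0.29 (edgeR adjusted P = 0.265). All morphine libraries (415 to 459.8 CPM) lay below all controls (487 to 616 CPM), as in 3.21% of all genes. Over 19 alternative settings Sqstm1 was called in 0, with a log2 fold change of -0.34 to -0.14, the latter with the choroid plexus score (SE 0.16). Of the 10 genes of PKC maturation and dephosphorylation, 0 were called, and 2, Mtor (-0.32) and Phlpp2 (-0.26), had an unadjusted edgeR P value under 0.05. Their median log2 fold change was -0.11, with 9 of 10 below 0. Of the 5 anchoring proteins and the 3 PKC-related kinases, 0 passed either threshold, with medians of 0.09 and -0.20.

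Genes whose pattern over the 8 libraries was most like that of Prkca and Prkcb, the most variable isoforms, were found by the SD of the difference in log2 CPM among 10736 genes. For Prkca these were Hspa2 (a heat shock protein, SD 0.12), Anxa11 (annexin A11, SD 0.15) and Zbtb20 (a transcription factor, SD 0.15). For Prkcb they were Plcb1 (phospholipase C-beta1, SD 0.11), Mkl2 (a cofactor of serum response factor, SD 0.15) and Mast3 (a microtubule-associated kinase, SD 0.16). These genes were picked for the smallest SD among all genes compared, so small values follow from the choice. How small they would be for another gene was not tested. The nearest isoform to Prkca was Prkcb (SD 0.26, rank 33). All genes compared share the same 8 libraries.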

How the data were processed

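The authors deposited raw read counts, whole numbers and not normalized, for 24488 RefSeq transcripts; the tool that made this table and its use of strand are not given in the sources used here. The study's methods describe Salmon and tximport for its own gene-level matrix, but here reads shared by transcripts are counted on each, so this table is not that matrix. Each of the 8 columns was matched to its sample by its labels, with 0 columns left over. The members and gene lists were chosen with earlier results of these data known. For each of 18939 genes the transcript with the most counts was used.

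Scaling was by TMM, and the test over all genes was the quasi-likelihood test of edgeR 4.0.16 in R 4.3.3, without sex as a covariate, with Benjamini-Hochberg adjustment and a threshold of 0.05. Single values were compared by exact two-sided permutation over 70 arrangements, after adding 0.5 CPM and taking log2 for CPM of genes. Marker scores are mean log2 CPM with a prior count of 2. Alternatives were DESeq2 1.42.0, limma-voom (limma 3.58.1), other scaling factors and filters, sex or a marker score in the model, summed transcripts and leaving out each library. The tests were tried on simulated data. All 151 list genes were matched, 2 by an older symbol.

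Genes outside the family were named if called, or, at an unadjusted P value under 0.05 without overlap of the groups, as the 2 largest differences of a list; likeness used genes with a mean of at least 5 CPM, and 3 genes each. Genes given beside these with an unadjusted P value under 0.05 were named after their values were seen. By the study's methods, libraries are pools of 2 dissections of mice of 1 sex. Control replicate 5, labelled female, held Y-linked counts all the same, so this does not hold by its counts. The labels give no batch. Counting error is small at this depth, but reads are not independent molecules, since PCR copies are not marked.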

Additional observations from a re-analysis of the deposited data

Results flagged for a closer look

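The level of Prkci in control replicate 2 was 75.9 CPM, apart from the other 3 control libraries, which lay between 91.3 and 94.0 CPM. Its gap to the nearest of them was 0.85 of the range of the group, above Dixon's 95% critical value for 4 values. Of 16 groups tested (8 isoforms in 2 conditions) this was the only one, and chance gives about 1 in 20. Without this library the log2 fold change of Prkci was -0.06 (edgeR adjusted P = 0.789).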

How the results depend on the processing

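The number of genes called for morphine was 37, and 502 with DESeq2, 23 with limma-voom, 14 after filterByExpr, 15 with at least 10 counts in every library, 110 with sex in the model, 22 with summed transcripts, 1 with the telencephalic and 0 with the choroid plexus marker score (edgeR, 648 at an unadjusted P value under 0.05), and 0 to 77 leaving out 1 library (0 without morphine replicate 4 and without replicate 8, with 1696 and 1664 at an unadjusted edgeR P value under 0.05). Calls by sex were 1, with DESeq2 21, after filterByExpr 0 and leaving out 1 library 0 to 5; calls for the interaction were 0 (325 at an unadjusted edgeR P value under 0.05), with DESeq2 4 and leaving out 1 library 0 to 5.

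Log2 fold changes for morphine turned direction for Prkci with upper-quartile factors (-0.017) and filterByExpr (-0.0090), for Prkcz with summed transcripts (0.0024), with the telencephalic score for Prkcb (-0.13), Prkcd (0.63), Prkce (-0.049) and Prkci (-0.091), and with the choroid plexus score for Prkcd (0.68), Prkch (0.061) and Prkcz (0.0076); the cause was not tested. Leaving out 1 library, the morphine values ranged from -0.26 to 0.073 for Prkcd, -0.23 to 0.087 for Prkcq, -0.059 to 0.062 for Prkci and -0.0585 to 0.029 for Prkcz. The female-male values ranged from -0.0057 to 0.51 for Prkca, -0.30 to 0.14 for Prkcd, -0.00091 to 0.14 for Prkci and -0.080 to 0.013 for Prkcz. The interaction ranged from -0.85 to 0.43 for Prkca, -0.79 to 0.37 for Prkcb, -0.31 to 0.80 for Prkcd, -0.59 to 0.27 for Prkch, -0.43 to 0.34 for Prkcq and -0.16 to 0.070 for Prkcz. The Prkcz transcript excess ranged from -2.75 to -2.06 percentage points leaving out 1 library, chosen after the data were seen.

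No paired analysis was possible because the groups share no replicate numbers. The isoforms held at least 486 counts per library.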
